A study of Mus musculus with 9 samples.

Results

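The genes described here are the 4 INK4 inhibitors (Cdkn2a, Cdkn2b, Cdkn2c and Cdkn2d), the Cip/Kip inhibitor Cdkn1b, the kinases Cdk4 and Cdk6 and the D cyclins Ccnd1, Ccnd2 and Ccnd3. They were picked by gene symbol among probe sets that carry a single symbol, which gave all 10 of 10 genes among the 19938 genes measured. RNA came from 9 samples with 1 array each, in 3 groups of 3. The osteosarcoma group held 3 adult C57BL/6 mouse tumour lines, 493H and 716H from females and 494H from a male, of the genotype Osx-Cre p53fl/fl Rbfl/fl, which the labels also give as p53-/- Rb-/- and describe as fibroblastic. In that model the Osx promoter drives Cre in the osteoblast lineage, and the lines were harvested subconfluent, below passage 8. The other groups were cultures of Kusa4b10, a mouse bone marrow stromal line, harvested undifferentiated (pre-osteoblasts) or after 21 days in medium with ascorbate (osteoblasts). All 6 Kusa4b10 cultures are of the same line, with no gene deletion named in the labels, so tumour state cannot be told apart from genotype, line of origin or culture history in either osteosarcoma comparison. The labels call the cultures independent samples without saying from what. The p-values rest on 1 spread per gene, pooled over the 3 groups and moderated across genes. That spread mixes differences between tumour lines with differences between cultures of the same Kusa4b10 line. For Cdkn2a the SD was 0.42 over the lines, 0.05 over osteoblasts and 0.08 over pre-osteoblasts.

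D cyclins bind CDK4 or CDK6, and the active complexes phosphorylate the retinoblastoma protein, which releases E2F factors and lets cells enter S phase. INK4 proteins bind CDK4 and CDK6 and keep D cyclins from activating them, while p27, the product of Cdkn1b, mainly inhibits CDK2 and also helps to assemble cyclin D complexes. Cdkn2a encodes p16Ink4a and, from another first exon and reading frame, p19Arf, which restrains MDM2 and so stabilises p53. Cells that have lost RB often carry high p16, a relation known from tumours of several tissues. In osteoblasts, p16 and p27 are known brakes on division, and D cyclins answer mitogens.

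The start of Cdkn2a bears on the largest difference below, because its probe set is annotated to the gene as a whole, so p16Ink4a and p19Arf transcripts were not separated. The table of RefSeq starts (build GRCm38.p6) held 11 starts for 8 of the 10 genes, and Ccnd1 and Ccnd2 had none there. The 250 bases before the outer start, used by p19Arf (chr4:89294620-89294869, minus strand), those before the inner start, used by p16Ink4a (chr4:89282193-89282442, minus strand), those before Cdkn2b (chr4:89311033-89311282, minus strand) and those before Cdk4 (chr10:127063285-127063534, plus strand) are shown 5′ to 3′ on the strand of the gene, with matches to an E2F or an E-box motif in capitals.
p19Arf start of Cdkn2a: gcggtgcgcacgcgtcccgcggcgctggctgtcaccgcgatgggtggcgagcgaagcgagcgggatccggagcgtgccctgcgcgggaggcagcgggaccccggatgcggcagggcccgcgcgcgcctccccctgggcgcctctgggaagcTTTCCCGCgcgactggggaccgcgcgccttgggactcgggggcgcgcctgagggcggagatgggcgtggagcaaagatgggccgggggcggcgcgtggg
p16Ink4a start of Cdkn2a: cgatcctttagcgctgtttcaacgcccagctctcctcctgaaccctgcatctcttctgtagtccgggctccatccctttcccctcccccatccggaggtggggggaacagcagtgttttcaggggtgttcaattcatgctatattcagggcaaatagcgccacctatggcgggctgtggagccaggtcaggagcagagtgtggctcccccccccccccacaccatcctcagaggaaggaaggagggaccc
Cdkn2b: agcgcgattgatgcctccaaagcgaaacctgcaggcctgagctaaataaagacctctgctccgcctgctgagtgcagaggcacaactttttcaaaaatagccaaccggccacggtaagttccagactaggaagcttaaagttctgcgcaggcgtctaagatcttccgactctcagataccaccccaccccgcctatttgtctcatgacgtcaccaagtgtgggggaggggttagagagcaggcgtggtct
Cdk4: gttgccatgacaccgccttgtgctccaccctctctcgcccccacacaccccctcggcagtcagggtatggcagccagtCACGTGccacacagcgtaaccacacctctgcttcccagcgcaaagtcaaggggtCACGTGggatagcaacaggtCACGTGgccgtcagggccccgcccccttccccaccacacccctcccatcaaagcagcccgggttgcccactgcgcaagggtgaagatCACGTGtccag
The E2F motif was searched as TTTCCCGC, TTTGGCGC, TTTCGCGC or TTTGCCGC on both strands, and 1.86% of the 32851 windows of the same length in the table held it. Among the members' windows, the p19Arf start alone held a match, 1 in number. The E-box CACGTG, which Myc and related factors can bind, was in 6.02% of the windows. Cdk4 held 4 matches, a count of 4 or more being reached in 0.0213% of the windows, and Cdk6 held 1. The p19Arf window had 78.4% G and C with 40 CpG dinucleotides, against 60.0% and 7 before the p16Ink4a start, 53.6% and 12 before Cdkn2b, and medians of 52.4% and 6 over the table. These matches are letters in a sequence, and no binding was measured.

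Levels are the deposited log2 values per probe set, differences are in log2 and stand beside limma's standard error, and a difference counts as passing at a Benjamini-Hochberg adjusted p below 0.05 over all 19938 genes. Against pre-osteoblasts, the osteosarcoma lines had higher Cdkn2a and Cdkn2b, 2 of the 10 genes, 0 being lower, with 9.96% of all genes called higher, 13.5% lower and 23.5% called in either direction. Against osteoblasts, 6 of the 10 were higher in the lines (Cdkn2a, Cdkn2b, Cdkn2c, Cdkn2d, Cdk6 and Ccnd3) and 0 lower, with 14.7% of all genes called higher, 12.7% lower and 27.4% in either direction. Without 1 library at a time this count was 4 to 6, and Cdk6 and Ccnd3 were the members lost. Between osteoblasts and pre-osteoblasts, Cdkn2c and Cdkn2d fell, 2 of 10, and 0 rose, with 15.8% of all genes called lower, 10.3% higher and 26.1% in either direction, which is a share near the background, and 0 of 10 without osteoblast culture 3. The median difference of the 10 genes was 0.20 between lines and pre-osteoblasts, 0.49 between lines and osteoblasts and -0.20 between osteoblasts and pre-osteoblasts, where the medians over all genes were -0.02, -0.02 and -0.004. Groups of 3 did not overlap for 6 of the 10 between lines and pre-osteoblasts (35.6% of all genes), 5 between lines and osteoblasts (38.7%) and 2 between the Kusa4b10 states (44.2%). The comparisons share groups, so they are not independent of each other.

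**Figure D1:**
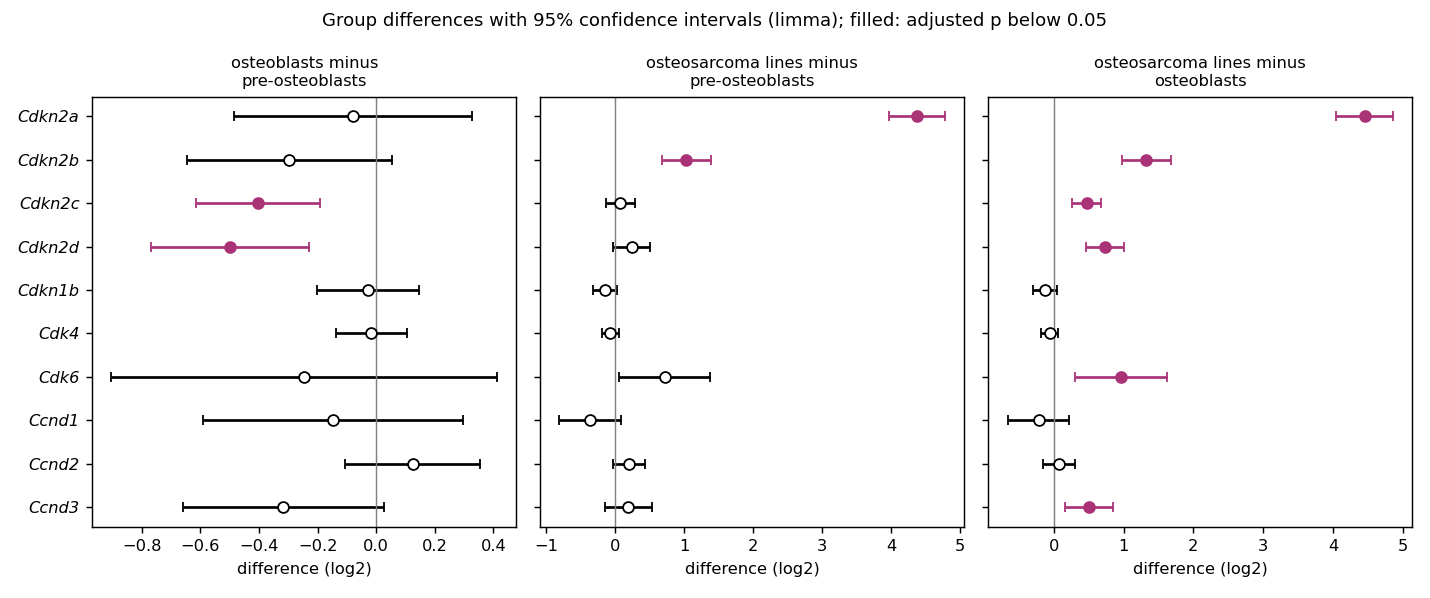
Differences between group means in log2 (x axis) for the 10 genes (y axis), in 3 panels for the 3 comparisons, with 95% confidence intervals from limma over 3 arrays a group. Filled points passed an adjusted p of 0.05, and the horizontal scales of the panels differ. Cdkn2a stands at 4.38 and 4.45 in the osteosarcoma panels, far to the right of the other genes.

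Cdkn2a (probe set 10514340) was nearly flat in Kusa4b10 and high in every tumour line. Its level was 7.55, 7.41 and 7.44 in pre-osteoblast cultures 1, 2 and 3, and 7.39, 7.43 and 7.34 in osteoblast cultures 1, 2 and 3. In 493H, 494H and 716H it was 11.79, 11.46 and 12.28. All 3 lines lay above all 6 Kusa4b10 cultures, and the 2 Kusa4b10 states overlapped. The lines were 20.8-fold above pre-osteoblasts (4.38 ± 0.18, adjusted p = 6.85e-06) and 21.9-fold above osteoblasts (4.45 ± 0.18, adjusted p = 5.00e-06). Line by line, the level was 15.9-fold above the pre-osteoblast mean in 494H, 20.0-fold in 493H and 28.2-fold in 716H. Between osteoblasts and pre-osteoblasts the difference was -0.08, with a 95% interval from -0.48 to 0.33 (adjusted p = 0.812). The Kusa4b10 values lie below 7.97, the median of all gene means, and above 6.44, their lower quartile. Whether RMA compressed differences there was not tested. Over the 9 arrays Cdkn2a spanned 4.94, and 0.30% of the genes spanned more.

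Cdkn2b, which encodes p15Ink4b and lies next to Cdkn2a, was raised in the lines to a smaller extent (probe set 10514347). Pre-osteoblast cultures 1, 2 and 3 measured 9.46, 9.18 and 9.37, and osteoblast cultures 8.87, 9.01 and 9.24. The lines had 10.06, 10.60 and 10.45 (493H, 494H, 716H), all above every Kusa4b10 culture, and the Kusa4b10 states overlapped. The difference was 1.03 ± 0.15 against pre-osteoblasts (2.05-fold, adjusted p = 0.00208) and 1.33 ± 0.15 against osteoblasts (2.51-fold, adjusted p = 5.22e-04). The line with the highest Cdkn2a, 716H, was not the one with the highest Cdkn2b, which was 494H. Between the Kusa4b10 states the difference was -0.30, with an interval from -0.65 to 0.05 (adjusted p = 0.213).

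The genes beside the locus did not share these rises as a block. Gene order was taken from the GRCm38.p6 table, and the 6 nearest measured protein-coding genes on each side of Cdkn2a on chromosome 4 were read. Mtap, the methylthioadenosine phosphorylase gene on the other side of Cdkn2a from Cdkn2b, was lower in the lines than in pre-osteoblasts by 0.77 on the log2 scale (-0.77 ± 0.12, adjusted p = 0.00270), and it also fell from pre-osteoblasts to osteoblasts (-0.62 ± 0.12, adjusted p = 0.00633). Against osteoblasts the lines differed in Mtap by -0.15 (adjusted p = 0.423). Beyond Cdkn2b, the transcription factor gene Dmrta1 was 0.45 ± 0.12 higher in the lines than in pre-osteoblasts (adjusted p = 0.0246), at levels between 5.80 and 6.48 over the 9 arrays. That call was lost without 716H (adjusted p = 0.0675) or pre-osteoblast culture 2 (0.0700) or 3 (0.0888), and with 1 array weight per group (0.0536). Of these 12 neighbours, Cdkn2b included, 2 were higher and 3 lower than in pre-osteoblasts, and 1 was higher and 1 lower than in osteoblasts. Among all genes, 9.96% were called higher and 13.5% lower than in pre-osteoblasts, and 14.7% higher and 12.7% lower than in osteoblasts. Against pre-osteoblasts the largest differences among the 12 neighbours were negative, in Ifnz (-1.35 ± 0.10, adjusted p = 1.25e-04) and Elavl2 (-1.27 ± 0.15, adjusted p = 7.21e-04). Against osteoblasts they were -0.51 (adjusted p = 0.00706) and -0.39 (adjusted p = 0.0933). In both genes all osteoblast cultures also lay below all pre-osteoblast cultures. Some neighbours were dim, such as Ifna11 and Izumo3, between 4.22 and 4.84 on all arrays, so their lack of change says little. Copy number was not measured.

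**Figure D2:**
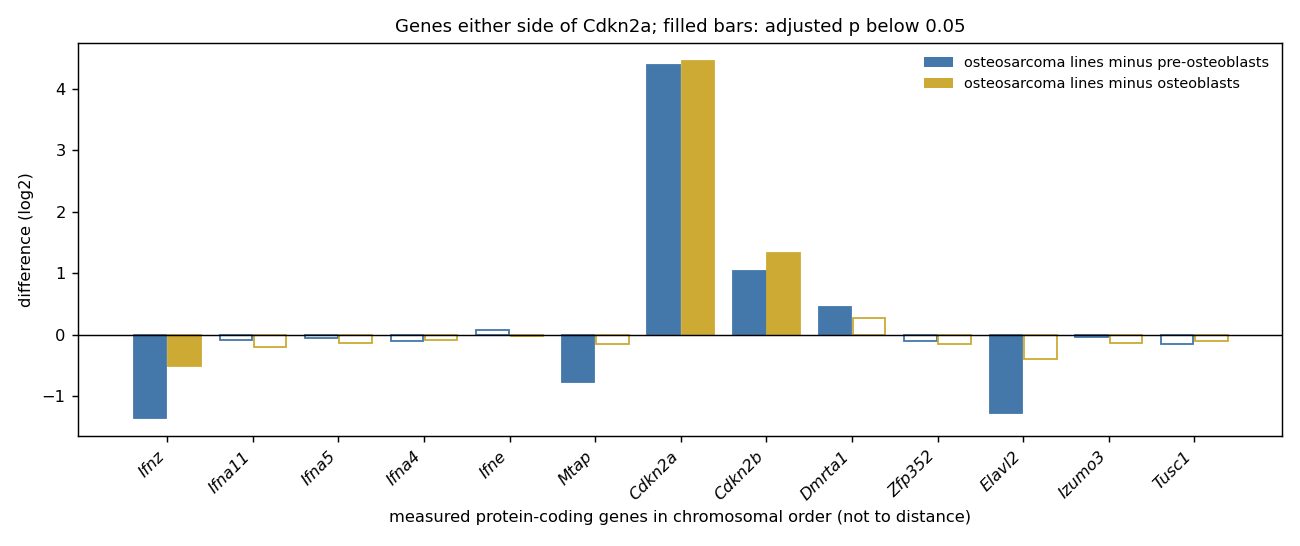
Difference in log2 (y axis) between osteosarcoma lines and pre-osteoblasts (blue) or osteoblasts (yellow) for Cdkn2a and the 6 measured protein-coding genes on each side, in chromosomal order and not to distance (x axis). Filled bars passed an adjusted p of 0.05 in limma. Cdkn2a and Cdkn2b are the genes with filled bars above 0 in both comparisons.

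Cdkn2c, the gene of p18Ink4c, was lowest in the differentiated cultures (probe set 10515090). Pre-osteoblasts had 10.66, 10.66 and 10.59 and osteoblasts 10.28, 10.26 and 10.17, while 493H, 494H and 716H had 10.66, 10.92 and 10.55. The osteoblast cultures lay below all other arrays, while lines and pre-osteoblasts overlapped. Cdkn2c fell from pre-osteoblasts to osteoblasts by 0.40 on the log2 scale (-0.40 ± 0.09, 1.32-fold, adjusted p = 0.0130), and the lines were 0.47 ± 0.09 above osteoblasts (1.39-fold, adjusted p = 0.00583). Without osteoblast culture 3, the fall was -0.37 with an adjusted p of 0.0529 and no longer passed. Lines and pre-osteoblasts differed by 0.07, with an interval from -0.14 to 0.28 (adjusted p = 0.659).

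Cdkn2d, the gene of p19Ink4d, had the same order of groups (probe set 10591517). Pre-osteoblasts stood at 8.00, 8.32 and 8.00, osteoblasts at 7.69, 7.72 and 7.41, and the lines at 8.35, 8.44 and 8.24. The osteoblast cultures were again below all other arrays, and pre-osteoblast culture 2 reached into the range of the lines. The fall to osteoblasts was -0.50 ± 0.12 (1.41-fold, adjusted p = 0.0149), and the lines were 0.74 ± 0.12 above osteoblasts (1.67-fold, adjusted p = 0.00226). Without osteoblast culture 3, the lowest culture, the fall was -0.40 with an adjusted p of 0.0505. Lines and pre-osteoblasts differed by 0.24, with an interval from -0.03 to 0.51 (adjusted p = 0.193).

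Cdkn1b, the p27 gene, moved little on its brighter probe set (10542310). Pre-osteoblasts had 11.76, 11.54 and 11.69, osteoblasts 11.63, 11.64 and 11.63, and 493H, 494H and 716H had 11.49, 11.42 and 11.63. The 3 groups overlapped. The differences were -0.15 between lines and pre-osteoblasts (interval -0.32 to 0.03, adjusted p = 0.215), -0.12 between lines and osteoblasts (-0.29 to 0.05, adjusted p = 0.304) and -0.03 between the Kusa4b10 states (-0.20 to 0.15, adjusted p = 0.844). A dimmer probe set of the gene (10542317), not used for the gene's value, read 8.66, 7.55 and 8.26 for pre-osteoblasts, 8.77, 8.70 and 8.90 for osteoblasts and 8.71, 8.70 and 9.03 for the lines. On it, lines and osteoblasts were above pre-osteoblasts by 0.65 ± 0.25 and 0.63 ± 0.25 (adjusted p over all single-symbol probe sets 0.0969 and 0.102), so the probe sets disagree in sign and neither passed.

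Cdk4 was the flattest member (probe set 10366814). Pre-osteoblasts were at 13.59, 13.52 and 13.52, osteoblasts at 13.49, 13.52 and 13.58, and the lines at 13.49, 13.52 and 13.42. Its whole range over the 9 arrays was 0.18, and 93.3% of all genes ranged more widely. The lines lay just below the pre-osteoblasts without overlap, but the difference of -0.07 did not pass (interval -0.20 to 0.05, adjusted p = 0.395). Against osteoblasts it was -0.06 (-0.18 to 0.07, adjusted p = 0.498), and between the Kusa4b10 states -0.02 (-0.14 to 0.11, adjusted p = 0.876). Myc, whose product can bind the E-boxes seen before the Cdk4 start, was 1.14 ± 0.14 higher in the lines (adjusted p = 9.34e-04) and 0.95 ± 0.14 higher in osteoblasts (adjusted p = 0.00186) than in pre-osteoblasts. Whether Myc acts on Cdk4 in these cells was not tested. Cdk4 sits near the top of the array's scale, and saturation of its probes was not tested.

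Cdk6 varied more than any other member among the lines (probe set 10519324). Pre-osteoblasts had 9.9997, 10.25 and 10.22, osteoblasts had 9.72, 10.34 and 9.66, and 493H, 494H and 716H had 10.89, 11.44 and 10.29. Line 494H was 2.44-fold above the pre-osteoblast mean, whereas 716H was 1.09-fold above it and lay below osteoblast culture 2. The lines were 0.96 ± 0.29 above osteoblasts (1.95-fold, adjusted p = 0.0383). This call was fragile, being lost without 493H (adjusted p = 0.0912), 494H (0.0792), osteoblast culture 1 (0.124) or 3 (0.127), or pre-osteoblast culture 1 (0.0558), 2 (0.0598) or 3 (0.0628), and when only the compared groups were fitted (0.0975). The difference from pre-osteoblasts, 0.71 ± 0.29, did not pass (interval 0.06 to 1.37, adjusted p = 0.117), although all lines lay above all pre-osteoblast cultures. Without 716H it was 1.01 with an adjusted p of 0.0217. Between the Kusa4b10 states the difference was -0.25 (-0.90 to 0.41, adjusted p = 0.612).

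**Figure D3:**
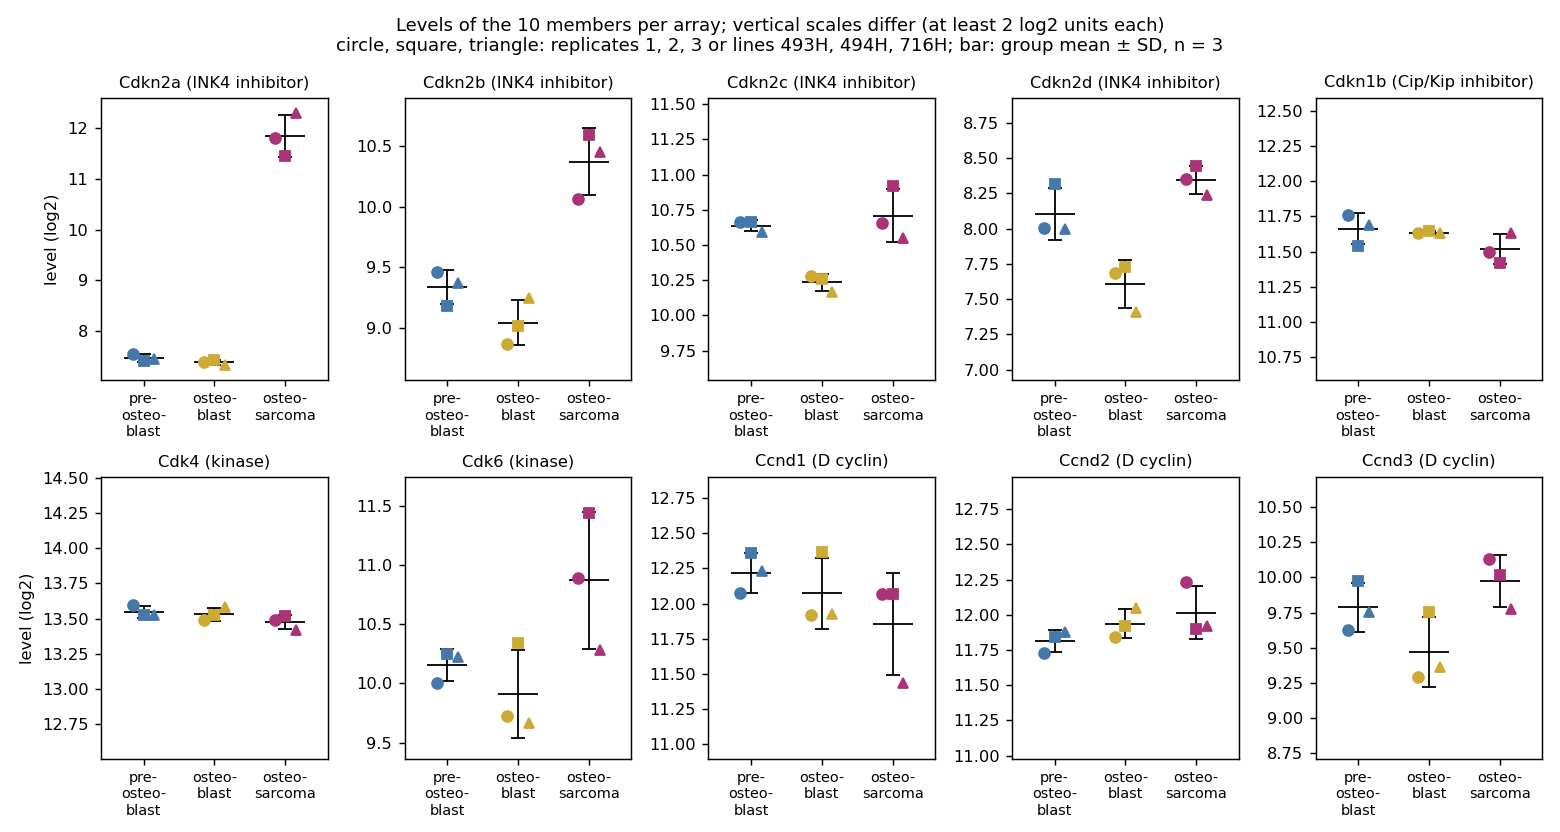
Deposited level in log2 (y axis) of each of the 10 genes in the 3 groups (x axis), a panel a gene. Points are arrays, with circles, squares and triangles for cultures 1, 2 and 3 or lines 493H, 494H and 716H, and bars give the group mean ± SD over 3 arrays. Cdkn2a is between 11.46 and 12.28 in the lines and between 7.34 and 7.55 in all Kusa4b10 cultures, while Cdk4 hardly moves.

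Ccnd1, the cyclin D1 gene and a common mitogen and Wnt target, was measured at 12.07, 12.36 and 12.23 before differentiation and at 11.92, 12.36 and 11.93 after it (probe set 10569646). It was at 12.07 in both 493H and 494H and at 11.43 in 716H, the lowest of all arrays. The lines reached no higher than the lowest pre-osteoblast culture. No comparison passed: the differences were -0.37 between lines and pre-osteoblasts (interval -0.81 to 0.08, adjusted p = 0.230), -0.22 between lines and osteoblasts (-0.66 to 0.23, adjusted p = 0.475) and -0.15 between osteoblasts and pre-osteoblasts (-0.59 to 0.30, adjusted p = 0.655). In the osteoblast group the high value was that of culture 2.

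Ccnd2, which encodes cyclin D2, stayed within 0.50 over the 9 arrays (probe set 10548105). Pre-osteoblasts measured 11.73, 11.84 and 11.87, osteoblasts 11.85, 11.92 and 12.05, and the lines 12.23, 11.90 and 11.92, so 493H was the highest array. The lines lay above the pre-osteoblasts without overlap, by 0.20 (interval -0.03 to 0.43, adjusted p = 0.201), and overlapped with osteoblasts, from which they differed by 0.08 (-0.15 to 0.31, adjusted p = 0.633). Osteoblasts and pre-osteoblasts differed by 0.12 (-0.11 to 0.36, adjusted p = 0.445).

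Ccnd3, the cyclin D3 gene, was lowest in osteoblasts and highest in 493H and 494H (probe set 10445688). Pre-osteoblasts had 9.63, 9.98 and 9.75, osteoblasts had 9.29, 9.75 and 9.37, and the lines 493H, 494H and 716H had 10.13, 10.02 and 9.77. The lines were 0.50 ± 0.15 above osteoblasts (1.42-fold, adjusted p = 0.0374), with 716H just above osteoblast culture 2. That call was lost without 493H (adjusted p = 0.115), 494H (0.0817), osteoblast culture 1 (0.130) or 3 (0.121) or pre-osteoblast culture 3 (0.0613), when only the compared groups were fitted (0.0685) and with 1 array weight per group (0.0656). Osteoblasts and pre-osteoblasts differed by -0.32 (interval -0.66 to 0.03, adjusted p = 0.172), and by -0.46 with an adjusted p of 0.0477 without osteoblast culture 2. Lines and pre-osteoblasts differed by 0.19 (-0.16 to 0.53, adjusted p = 0.439).

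The spread within groups differed between members. Of the 10 genes, 7 ranged more widely over the lines than within either Kusa4b10 group, where 50.9% of all genes did: Cdkn2a, Cdkn2b, Cdkn2c, Cdk4, Cdk6, Ccnd1 and Ccnd2. For Cdk4 the margin was slight, with a range of 0.098 over the lines and 0.0951 over osteoblasts. The range over the lines was 1.16 for Cdk6, 0.83 for Cdkn2a, 0.63 for Ccnd1 and 0.53 for Cdkn2b, against a median of 0.22 over all genes, and 3.69% of genes ranged more than Cdk6. Line 716H combined the highest Cdkn2a and Cdkn1b with the lowest Cdkn2c, Cdkn2d, Cdk4, Cdk6, Ccnd1 and Ccnd3 of the lines. Line 494H had the highest Cdkn2b, Cdkn2c, Cdkn2d and Cdk6 and the lowest Cdkn2a. Each line has a single array, so these differences between lines have no replicate check.

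**Figure D4:**
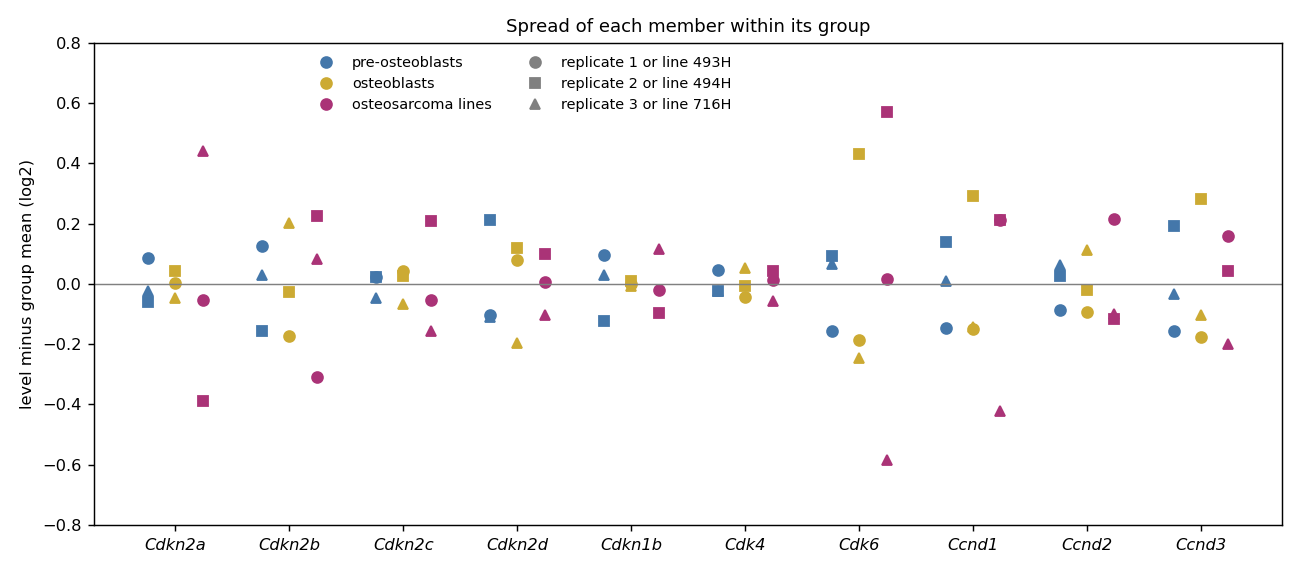
Level of each array minus the mean of its group in log2 (y axis) for the 10 genes (x axis), with pre-osteoblasts in blue, osteoblasts in yellow and the lines in magenta. Squares, for culture 2 or line 494H, stand highest in all 3 groups for Cdk6, and for Ccnd3 in both Kusa4b10 groups. In Cdkn2a and Cdk6 the lines are spread more widely than the cultures.

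Osteoblast culture 2 stood above the other osteoblast cultures in Cdk6 (10.34 against 9.72 and 9.66), Ccnd1 (12.36 against 11.92 and 11.93) and Ccnd3 (9.75 against 9.29 and 9.37). A proliferation list of 13 genes, 12 of them measured, moved the same way. Its mean level was 10.19 in that culture and 9.31 and 9.17 in the other osteoblast cultures, 10.96 to 11.88 in pre-osteoblasts and 11.47 to 11.95 in the lines. The log2 of its summed level ran from 13.37 to 14.05 in osteoblasts, 14.72 to 15.56 in pre-osteoblasts and 15.19 to 15.63 in the lines. Of the 12, 11 fell from pre-osteoblasts to osteoblasts, led by the mitotic kinase gene Plk1. In the lines 11 were higher than in osteoblasts, led by the spindle checkpoint gene Bub1, while 0 passed between lines and pre-osteoblasts in limma. Of all genes, 15.8% fell to osteoblasts, 14.7% were higher in the lines than in osteoblasts and 23.5% passed between lines and pre-osteoblasts. The median difference of the list was -2.09, 2.28 and 0.23 in these comparisons. Plk1 differed by -2.56 ± 0.35 (adjusted p = 0.00130), 2.48 ± 0.35 (adjusted p = 0.00139) and -0.08 ± 0.35 (adjusted p = 0.912) in these comparisons. The part of proliferation in the differences of Cdkn2c, Cdkn2d, Cdk6 and Ccnd3 was not tested. In bulk RNA, a change in the share of dividing cells cannot be told apart from a change per cell.

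The labelled states were read from further markers. Of all genes, 10.3% rose and 15.8% fell from pre-osteoblasts to osteoblasts. In the lines, 9.96% of genes were higher and 13.5% lower than in pre-osteoblasts, and 14.7% were higher and 12.7% lower than in osteoblasts. Of 10 osteoblast markers, 7 were measured and 6 rose from pre-osteoblasts to osteoblasts, while 1 was higher in the lines than in pre-osteoblasts. Against osteoblasts, 0 osteoblast markers were higher and 4 lower in the lines, with a median difference of -1.72. Of 9 adipocyte markers, 8 were measured and 5 rose in osteoblasts, with a log2 summed level of 13.95 to 14.66 there, 12.26 to 12.67 in pre-osteoblasts and 11.05 to 11.77 in the lines. In the lines 0 adipocyte markers were higher and 2 lower than in pre-osteoblasts, and 0 higher and 7 lower than in osteoblasts, with a median difference of -2.54 in the latter. The part of both marker lists in the members' differences with osteoblasts was not tested. Markers of endothelium (6 measured) and epithelium (6) gave 0 calls in each comparison. Chondrocyte markers (6) gave 1 call, higher in the lines than in pre-osteoblasts, and haematopoietic markers (8) gave 2 calls lower in osteoblasts than in pre-osteoblasts and 1 higher in the lines than in osteoblasts. Muscle and myofibroblast markers (6) gave 2 lower in osteoblasts and 1 higher in the lines than in osteoblasts. Of 5 osteoclast markers, 2 were higher in osteoblasts than in pre-osteoblasts, 1 was higher in the lines than in pre-osteoblasts, and 1 was higher and 1 lower in the lines than in osteoblasts.

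The pocket proteins, the targets of cyclin D kinases, split. Rb1 rose by 1.40 ± 0.13 with differentiation (adjusted p = 2.26e-04) and differed by -1.05 ± 0.13 between lines and osteoblasts (adjusted p = 7.67e-04). Against pre-osteoblasts the lines were at 0.35 ± 0.13 (adjusted p = 0.0965), and at 0.52 with an adjusted p of 0.00310 without 493H and 0.40 with 0.0455 after centring the arrays. The position of the Rb1 probes relative to the floxed part was not used here, so the level does not check the deletion. Rbl1, the p107 gene, fell in osteoblasts (-1.19 ± 0.16, adjusted p = 0.00123) and was 1.21 ± 0.16 higher in the lines than in osteoblasts (adjusted p = 0.00102). The median of these 3 genes was 0.27 between the Kusa4b10 states, 0.02 between lines and pre-osteoblasts and -0.81 between lines and osteoblasts. Rbl2, the p130 gene, was lower in the lines than in pre-osteoblasts (-0.55 ± 0.05, adjusted p = 2.85e-04) and osteoblasts (-0.81 ± 0.05, adjusted p = 4.71e-05).

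In E2F and DP genes and the CDK2 arm, the lines differed from osteoblasts more than from pre-osteoblasts. The part of proliferation in these differences, and in those of Skp2, Cks1b and Cks2 below, was not tested. All 6 genes of the CDK2 arm were higher in the lines than in osteoblasts, among them the cyclins Ccna2 (2.46 ± 0.36) and Ccne1 (1.87 ± 0.29), and 3 fell from pre-osteoblasts to osteoblasts. Against pre-osteoblasts 2 were higher, a number that was 1 without 494H, 716H, any 1 osteoblast culture or pre-osteoblast culture 3, and 0 without pre-osteoblast culture 1. Of 10 E2F and DP genes, 6 were higher in the lines than in osteoblasts, led by the repressor E2f7 (1.99 ± 0.29), and 5 fell in osteoblasts, led by E2f8 (-2.30 ± 0.38). The number that fell was 3 without osteoblast culture 1 or 2, and 2 without pre-osteoblast culture 2. Against pre-osteoblasts 1 was higher (Tfdp2, 0.79 ± 0.16) and 1 lower, and the lower one was lost without 493H, osteoblast culture 1 or 3 or pre-osteoblast culture 2 or 3. Over all genes, 14.7% were higher in the lines than in osteoblasts and 15.8% fell in osteoblasts. In the lines, 9.96% of all genes were higher and 13.5% lower than in pre-osteoblasts. The median difference of the CDK2 arm was -0.71 between the Kusa4b10 states, 0.39 between lines and pre-osteoblasts and 1.27 between lines and osteoblasts, and that of the E2F and DP genes was -0.55, 0.21 and 0.63 in the same order. Cdkn1c, the p57 gene, was 0.29 ± 0.08 higher in the lines than in pre-osteoblasts (adjusted p = 0.0247), a call lost without 493H (0.0745), 716H (0.0654) or pre-osteoblast culture 2 (0.0611) or 3 (0.0864). Cdkn1a and Trp53 were not analysed here.

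Among 11 genes for the turnover of D cyclins and p27, 5 were higher and 1 lower in the lines than in pre-osteoblasts, 5 higher and 2 lower than in osteoblasts, and 4 rose and 3 fell from pre-osteoblasts to osteoblasts. Without pre-osteoblast culture 1 or 3 the first of these counts was 3 higher and 0 lower. Called in either direction were 23.5% of all genes between lines and pre-osteoblasts, 27.4% between lines and osteoblasts and 26.1% between the Kusa4b10 states. Cks1b, the cofactor with which SKP2 recognises p27, was 1.10 ± 0.20 above pre-osteoblasts and 1.28 ± 0.20 above osteoblasts, Skp2 itself was 1.29 ± 0.15 above osteoblasts, and Cks2 1.60 ± 0.18. Fbxo31, an F-box gene linked to cyclin D1 breakdown, rose by 1.78 ± 0.17 in osteoblasts. Of 4 measured genes for CDK assembly and activation, 1 rose and 2 fell in osteoblasts, with Ccnh at 0.49 ± 0.08, 1 was higher in the lines than in pre-osteoblasts, and 3 were higher in the lines than in osteoblasts. The last count was 1 without any 1 line and 0 without osteoblast culture 1 or 3. Of 6 measured inducers of D cyclins, 2 rose and 1 fell in osteoblasts, with Myc at 0.95 ± 0.14. In the lines 1 was higher and 2 lower than in pre-osteoblasts, with Myc at 1.14 ± 0.14, and 3 were lower than in osteoblasts, led by Lef1 (-1.24 ± 0.22). That number was 1 without osteoblast culture 3 or pre-osteoblast culture 1. In the order Kusa4b10 states, lines against pre-osteoblasts and lines against osteoblasts, the median difference was 0.02, 0.16 and -0.07 for the turnover genes, -0.25, 0.08 and 0.28 for CDK assembly and activation, and 0.56, -0.09 and -0.40 for the inducers.

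Genes listed as regulators of the Ink4-Arf locus went in both directions, and the roles given to them were not tested. For scale, 9.96% of all genes were called higher and 13.5% lower in the lines than in pre-osteoblasts. Against osteoblasts these shares were 14.7% and 12.7%, and 10.3% rose and 15.8% fell from pre-osteoblasts to osteoblasts. Of 16 repressors, 2 were higher and 5 lower in the lines than in pre-osteoblasts, led by Twist1 (0.82 ± 0.13), the Polycomb methyltransferase gene Ezh2 (0.73 ± 0.12) and the Polycomb gene Ring1 (-0.59 ± 0.06). Without pre-osteoblast culture 1 the counts were 2 and 2. Against osteoblasts 4 were higher and 4 lower, led by Tbx3 (1.00 ± 0.22). From pre-osteoblasts to osteoblasts 3 rose and 4 fell, and the number that fell was 0 without osteoblast culture 1 or 3 or pre-osteoblast culture 2, 1 without pre-osteoblast culture 1 and 2 without osteoblast culture 2. Of 13 genes listed as activators, 2 were higher and 3 lower in the lines than in pre-osteoblasts, with Ets2 at 1.10 ± 0.10 and Jun at 0.80 ± 0.09. Against osteoblasts 2 were higher and 4 lower, led by Id3 (1.65 ± 0.20). In osteoblasts 3 rose and 2 fell, led by Ets2 (2.14 ± 0.10), with Id3 among those that fell (-1.07). Without osteoblast culture 1 or 3 or pre-osteoblast culture 3 these were 1 and 1, and 2 and 1 without osteoblast culture 2 or pre-osteoblast culture 2. The place of Id3 in this list is uncertain, because its relative Id1 stands among the repressors. These counts therefore give no direction for activation of the locus. Of 7 measured locus neighbours and ARF partners, 2 were higher and 3 lower in the lines than in pre-osteoblasts, with Cdkn2aip at -0.74 ± 0.08, 0 were higher and 1 lower than in osteoblasts (Mdm4, -0.77 ± 0.11), and 0 rose and 2 fell in osteoblasts. The counts against pre-osteoblasts were 0 and 3 without 716H or pre-osteoblast culture 3 and 1 and 2 without pre-osteoblast culture 1. Against osteoblasts 0 were higher and 2 lower without 493H or 494H, and 1 and 1 without osteoblast culture 2. In the same order of comparisons as before, the medians were -0.13, 0.01 and -0.03 for the repressors, 0.10, 0.05 and -0.11 for the activators and 0.11, -0.34 and -0.15 for the neighbours and partners.

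For the 3 members with the widest range over the arrays, the genes with the closest level profiles were found by the root mean square difference between profiles centred on their own mean over the 9 arrays. Among the 3 closest to Cdkn2a were Igfbp6, an IGF-binding protein gene (0.26), and the surface glycoprotein gene Thy1 (0.27). Closest to Cdk6 were the polyamine enzyme gene Odc1 (0.13), the mitochondrial carrier gene Slc25a13 (0.16) and the repair helicase gene Fancm (0.17), and closest to Cdkn2b were Mrpl35 (0.15), Ttll7 (0.15) and Hmgn3 (0.19). Igfbp6 was 11.43, 10.82 and 11.27 in 493H, 494H and 716H, and between 6.88 and 7.27 in the Kusa4b10 cultures. Odc1 had the same order of lines as Cdk6, with 10.67, 11.04 and 10.06. These genes were chosen by profile on the same 9 arrays, so such likeness is largely built in by the choice.

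**Figure D5:**
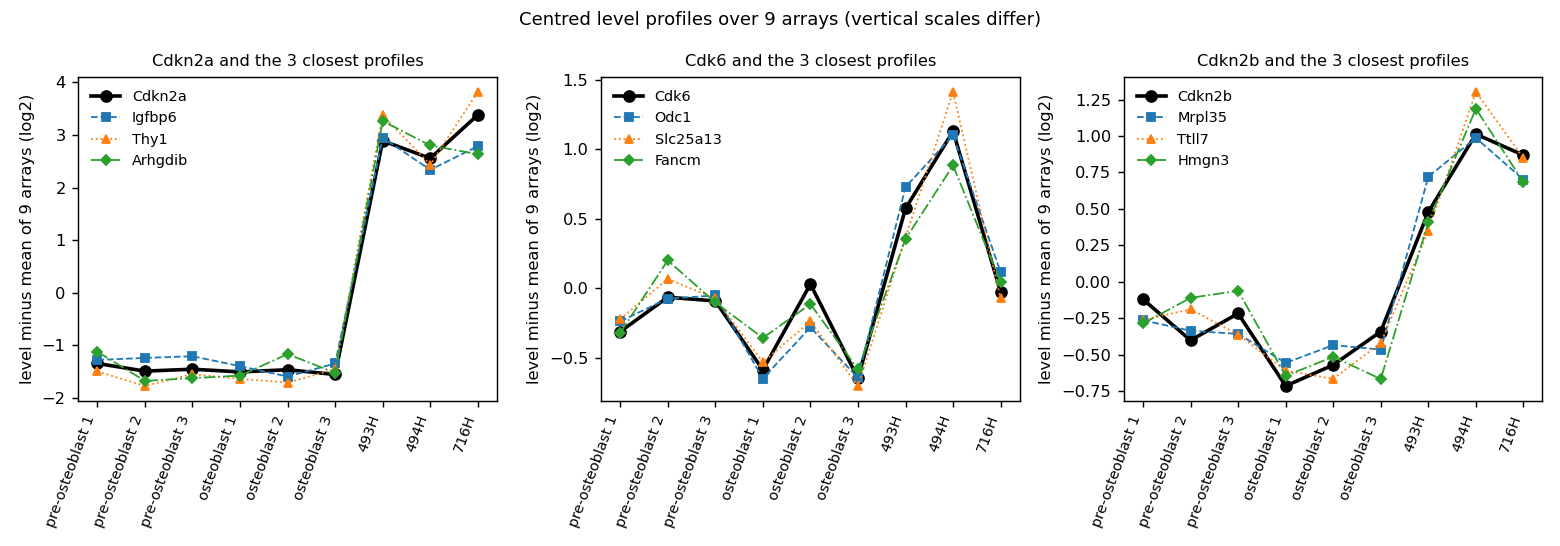
Level minus its mean over the 9 arrays in log2 (y axis) for Cdkn2a, Cdk6 and Cdkn2b (black) and the 3 genes closest to each, across the 9 arrays (x axis). The Cdkn2a panel shows a step between Kusa4b10 cultures and lines, and in the Cdk6 panel 494H is the peak for all 4 genes. The choice by profile on these arrays favours such likeness.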

How the data were processed

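Total RNA from 9 samples was hybridised to 1 biotin-labelled array each. The authors deposited log2 values per probe set, made with RMA, and the build mm9 is named, both per the submitters' processing notes; RMA draws dim probe sets together. Of 35556 probe sets, 21789 carry 1 gene symbol in the platform annotation, 1621 several and 12146 none; only the first were used, with the brightest probe set of each gene, which left 19938 genes. Array medians ran from 7.43 to 7.56; with 3 arrays a group, their number limits precision. Differences between the 3 group means were tested two-sided with limma 3.58.1 (lmFit, eBayes) in R 4.3.3 on all 9 arrays, with 6 residual degrees of freedom and Benjamini-Hochberg adjustment over all genes; the script was tested on simulated data. All adjusted p-values come from limma.

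The members, the 11 pathway lists and the 8 marker lists were chosen with earlier results of these data known. Besides the members, up to 3 called genes of a pathway list with the largest differences could be named per comparison, with Rb1 and Mtap in any case, and the 3 genes closest in profile to each of the 3 members with the widest range. The genes beside Cdkn2a, Dmrta1 among them, were chosen after their values were seen. RefSeq sequences and gene order are of GRCm38.p6, not the deposited build, and were matched by symbol. Alternatives were another normalization, filters on dim genes, the mean of probe sets, other variance models, the compared groups alone, a replicate block and leaving out each array.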

Additional observations from a re-analysis of the deposited data

How the results depend on the processing

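Over the settings tried, the 10 genes gave 520 repeated tests, of which 491 kept direction and side of the threshold, 17 lost a call, 3 gained one and 9 changed sign; for each of the last group neither value was called, and the cause was not tested. The sign of Cdkn1b between osteoblasts and pre-osteoblasts turned to 0.0155 after quantile normalization and 0.30 with the mean of its probe sets, and ran from -0.0893 to 0.0193 with 1 array left out (positive without pre-osteoblast replicate 1), and between lines and pre-osteoblasts to 0.25 with the mean of its probe sets. Cdk4 turned to 0.00977 between lines and osteoblasts after centring, and between the Kusa4b10 states ran from -0.0416 to 0.00722 with 1 array left out (positive without osteoblast replicate 1 or pre-osteoblast replicate 1). With 1 array left out, Cdkn2c ran from -0.0345 (without 494H) to 0.149 between lines and pre-osteoblasts, and Ccnd2 from -0.0285 (without 493H) to 0.136 between lines and osteoblasts. Leaving out 1 array gave 0 to 3 members called between the Kusa4b10 states (0 without osteoblast replicate 3, against 2), 2 to 3 between lines and pre-osteoblasts and 4 to 6 between lines and osteoblasts, and 3804 to 5881, 3364 to 4686 and 4058 to 5618 genes called in these comparisons. Centring the arrays raised the share of higher calls between lines and osteoblasts from 53.8% to 64.5%. Between lines and pre-osteoblasts that share went from 42.4%, a majority of lower calls, to 51.7% after centring and 51.3% after quantile normalization, a majority of higher calls, while the median of all genes moved by at most 0.07 under any scaling. With the replicate number as a block, 3 members (Ccnd3 in addition, -0.32, adjusted p = 0.0217 in limma) and 5883 genes were called between the Kusa4b10 states. The deviations of same-numbered cultures correlated at 0.15, 0.18 and 0.03, and those of differently numbered ones at -0.16 to 0.08. Osteoblast replicates 1 and 2 correlated best with their own number, but replicate 3 with pre-osteoblast replicate 1 (0.08), so the numbers were not taken as pairs. Mean Cdkn2a lay above 44.4% of genes in pre-osteoblasts and 42.8% in osteoblasts. This rank counts all genes, expressed or not, so it does not show that the Kusa4b10 levels stand above background. Whether RMA compressed the fold of Cdkn2a was not tested.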
